A study of Mus musculus with 2 samples.

Results

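The 9 genes described here are transcription factors of retinal ganglion cells (RGCs), the projection neurons that send the axons of the optic nerve. They are the 3 POU domain genes *Pou4f1*, *Pou4f2* and *Pou4f3*, the LIM homeobox gene *Isl1*, the early B cell factor genes *Ebf1*, *Ebf2* and *Ebf3*, the T-box gene *Eomes* (also called Tbr2) and the Iroquois gene *Irx2*. They were picked by symbol from the 28692 genes listed in the deposited count matrices, and all 9 were found there once. The retinas came from E14.5 embryos of the strain Tg(Lhx4::EGFP)KN199Gsat/Mmucd, kept as heterozygotes, in which a bacterial artificial chromosome with *Lhx4* sequence drives green fluorescent protein (GFP) in early cone photoreceptors. Retinas of 2 litters were pooled, dissociated and sorted together, and the live GFP+ and GFP- cells each gave 1 droplet library, so both gates carried the same transgene and differed in whether it was active. In such a library each captured transcript bears a unique molecular identifier (UMI), and PCR copies of a molecule are counted as 1.

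RGCs are the first neurons born in the mouse retina. Progenitors that express *Atoh7* leave the cell cycle and switch on *Pou4f2* and *Isl1*, which together drive the genes of axon growth and ganglion cell identity, while *Pou4f1*, *Pou4f3*, *Ebf* genes, *Irx2* and *Eomes* come up in differentiating cells and later mark overlapping sets of RGC types. Several of these factors are also used elsewhere in the retina: *Isl1* in starburst amacrine and bipolar cells, *Ebf* genes in amacrine cells, and *Eomes* in intrinsically photosensitive RGCs and some amacrine cells. *Sncg*, encoding gamma-synuclein, and *Nefl*, encoding the neurofilament light chain, build up as RGCs mature, and their summed UMIs are used below as an axis of differentiation.

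The 4444 GFP- cells that were kept had 46774961 UMIs (median 9937.5 UMIs and 2996.5 genes), and the 3728 GFP+ cells 16010591 UMIs (median 3906.5 UMIs and 1927 genes). The libraries shared 20 cell barcodes. Ganglion cell markers were present in the GFP- gate, where *Sncg* stood at 931 and *Nefl* at 417 UMIs per 1000000 (CPM), against 19.5 and 8.18 CPM in the GFP+ gate, in which the cone gene *Gngt2* stood at 1834 CPM. With 1 library per gate and no replicate, no test between gates or between groups of cells was made. All intervals are 95% exact intervals, and they cover counting error only. Levels are summed UMIs as CPM, and since a sum over cells mixes how many cells hold a transcript with how much each holds, the share of cells with a UMI is given beside it.

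As the members are themselves regulators of each other and of the genes around them, short stretches upstream of their starts are shown where a motif of their own classes or of ATOH7 was found. The motifs searched, on both strands of the 250 bases before the start, were the E-box CAGCTG bound by ATOH7-type factors, the POU4F core site ATTAAT, the homeodomain site TAATTA and the EBF site CCCNNGGGA. RefSeq promoters (GRCm38.p6) were at hand for 7 of the 9 members, as 8 promoters. The 4 windows of 30 bases below run 5′ to 3′ on the strand of the gene, and capitals mark the motif.
*Pou4f1*, E-box 118 bases before the start, chr14:104468100-104468129, minus strand: gacagacggagaCAGCTGctgtctgtcagc
*Isl1*, E-box 103 bases before the start, chr13:116309774-116309803, minus strand: tgataatcagaaCAGCTGcgccgcgcgccc
*Ebf3*, EBF motif on the opposite strand 22 bases before the start, chr7:137314448-137314477, minus strand: acagcgccgcTCCCGGGGGcttcgagtttt
*Eomes*, POU4F core site 124 bases before the start, chr9:118478053-118478082, plus strand: cgacccgatccaATTAATaaatacttaatt
The E-box occurred in 13.0% of the 32851 promoters of the table and in those of 2 members, the POU4F core site in 4.39% and in 1 member, and the EBF motif in 5.60% and in 1 member. The homeodomain site (4.84% of promoters) was found in none of the members' promoters. A match is a run of letters in this window and was not tied to binding by any measurement here.

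In the mm10 (GRCm38) genome of the deposited files the members lie on 7 chromosomes. *Pou4f1* (ENSMUSG00000048349) spans chr14:104461676-104467999 on the minus strand, *Pou4f2* (ENSMUSG00000031688) chr8:78433010-78436645 on the minus strand, and *Pou4f3* (ENSMUSG00000024497) chr18:42394539-42397249 on the plus strand. *Isl1* (ENSMUSG00000042258) spans chr13:116298281-116309689 on the minus strand, and *Irx2* (ENSMUSG00000001504) lies on the same chromosome at chr13:72628820-72634198 on the plus strand. *Ebf1* (ENSMUSG00000057098) spans chr11:44617317-45008091 and *Ebf2* (ENSMUSG00000022053) chr14:67233292-67430918, both on the plus strand. *Ebf3* (ENSMUSG00000010476) spans chr7:137193673-137314445 on the minus strand, and *Eomes* (ENSMUSG00000032446) chr9:118478212-118486132 on the plus strand. All are annotated as protein-coding.

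Between the gates, 7 of the 9 members were lower in GFP+ than in GFP- cells by over 2-fold, as were 16.7% of the 15735 genes with at least 10 UMIs, and none was higher, as were 22% of these genes. The median log2 ratio of the members, GFP+ over GFP-, was -4.42, beside 0.27 over all these genes. The members spread over a wide range, from near absence in the GFP+ gate to equal levels in both.

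*Pou4f2*, which starts the RGC program, stood at 54.0 CPM (51.9 to 56.1) in GFP- cells, with a UMI in 834 cells, and at 0.999 CPM (0.571 to 1.62) in GFP+ cells, with a UMI in 9 cells. It was thus 54.0-fold (33.2 to 94.7) lower in the GFP+ gate. *Isl1*, its partner, stood at 245 CPM in 1246 GFP- cells and at 3.75 CPM in 9 GFP+ cells, a 65.5-fold (50.8 to 85.9) difference. *Pou4f3* had 240 UMIs in 85 GFP- cells and a single UMI in the GFP+ library, a ratio of 82.2 (14.6 to 3258). *Irx2* was 22.0-fold (15.5 to 32.2) and *Eomes* 21.4-fold (10.3 to 53.5) lower in GFP+ cells. These 5 genes form the part of the set that the cone gate nearly lacked, and each had a UMI in 25 GFP+ cells or fewer. The 7 GFP+ cells with 4 or more *Sncg* and *Nefl* UMIs held 91.7% of the *Isl1* and 43.8% of the *Pou4f2* UMIs of the GFP+ library, but 25.0% of the *Irx2* and none of the *Eomes* and *Pou4f3* UMIs. The GFP+ library held only 32 *Irx2*, 7 *Eomes* and 16 *Pou4f2* UMIs in all. The 3651 of 3728 GFP+ cells with no *Sncg* or *Nefl* UMI held 75.0%, 71.4% and 56.3% of these. *Isl1* was at 0.321 CPM (5 cells) in these 3651 cells.

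The remaining 4 members were detected in the cone gate itself. *Ebf1* was at 308 CPM (303 to 313) in GFP- and 296 CPM (287 to 304) in GFP+ cells, a 1.04-fold difference (1.01 to 1.07), but the spread over cells was unlike: 2252 GFP+ cells (60.4%) held a UMI, with a mean of 2.103 UMIs in these, against 1368 GFP- cells (30.8%) with a mean of 10.5. After each cell was thinned to 3300 UMIs, 54.0% of GFP+ and 24.1% of GFP- cells held an *Ebf1* UMI. In CPM, many GFP+ cells with few *Ebf1* UMIs and fewer GFP- cells with more of them thus gave near-equal sums. The 2 means were not thinned, and part of their difference is depth (median 3906.5 UMIs in GFP+ and 9937.5 in GFP- cells).

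*Pou4f1* was 2.24-fold (2.00 to 2.52) and *Ebf3* 3.36-fold (2.97 to 3.80) lower in GFP+ cells, yet 301 GFP+ cells (8.07%) held a *Pou4f1* UMI and 250 (6.71%) an *Ebf3* UMI. *Ebf2*, the member of lowest level in GFP- cells, was 1.51-fold (1.14 to 1.98) higher in GFP+ cells, at 5.06 against 3.36 CPM. The upper limit of 3500 genes per cell that is often set against doublets reverses *Pou4f1*: it removes 1053 GFP- cells (23.7%), and the log2 ratio of *Pou4f1*, GFP+ over GFP-, then moves from -1.16 to 0.45. *Ebf1* then moves from -0.06 to 1.04. No upper limit was used here. The scaling matters as well: counted as mean UMIs per cell, where the deeper GFP- cells weigh more, the log2 ratios were -1.35 for *Ebf1* and -0.70 for *Ebf2*, and as means of per-cell values *Ebf1* was at 0.41 and *Pou4f1* at -0.64.

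**Figure D1:**
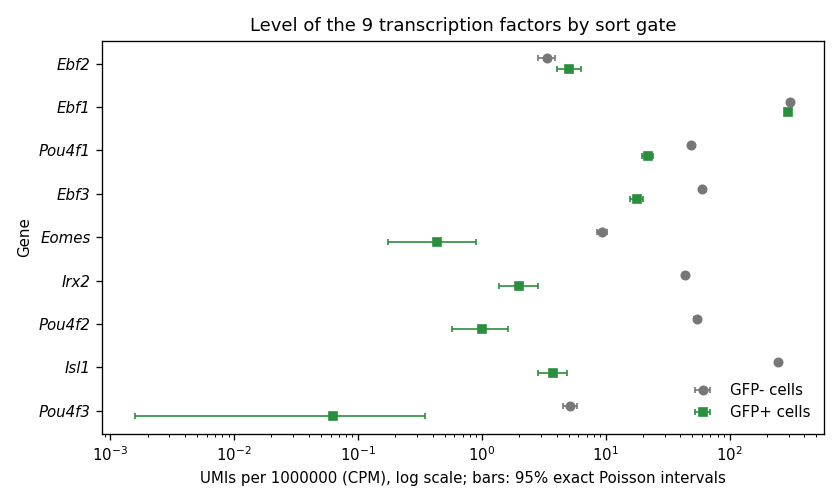
Level of each member in the GFP- (grey circles) and GFP+ (green squares) library, in CPM on a log scale, with 95% exact Poisson intervals over 4444 and 3728 cells. *Ebf1* and *Ebf2* lie close together in both gates, while *Pou4f3*, *Isl1*, *Pou4f2*, *Irx2* and *Eomes* are 21.4-fold or more lower in GFP+ cells.

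Most *Ebf1* and *Pou4f1* UMIs of the GFP+ library lay in cells with cone transcripts, which made up most of the gate. The 3501 of 3728 GFP+ cells with a *Gngt2* UMI and no *Sncg* or *Nefl* UMI held 94.0% of the *Ebf1* UMIs. They held 92.8% of the *Pou4f1* UMIs. An even spread over the gate would give much the same shares, so these do not place the transcripts in cones. In the 3501 GFP+ cells with a *Gngt2* UMI and no *Sncg* or *Nefl* UMI (median 3887 UMIs), *Ebf1* was at 301 CPM with a UMI in 61.4% of cells, and *Pou4f1* at 21.9 CPM with a UMI in 8.08%. In the same cells *Isl1* was at 0.271 and *Pou4f2* at 0.609 CPM, so that *Ebf1* had 4450 UMIs where *Isl1*, the second most abundant member of the GFP- library, had 4. GFP- cells of multipotent-progenitor-like cluster 3 (870 cells, median 8532 UMIs) held an *Ebf1* UMI in 5.75% and a *Pou4f1* UMI in 2.30%, despite their greater depth. Coming from the other library, they cannot measure background in the GFP+ library. Over all GFP+ cells the non-retinal marker *C1qa* was at 26.5 CPM with a UMI in 9.60%, beside 21.8 CPM and 8.07% for *Pou4f1*. Background as a source of these UMIs was not tested.

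The 3002 thinned GFP+ cells were narrowed to photoreceptor cells with no *Sncg* or *Nefl* UMI. Among these, the level of *Ebf1* was higher where the cone transcript *Gngt2* was more abundant. It was at 186 CPM (150 to 228) in 150 cells without *Gngt2*, 284 CPM (262 to 306) in 690 cells with 1 to 3 *Gngt2* UMIs, 296 CPM (278 to 314) in 1067 cells with 4 to 7, and 332 CPM (313 to 352) in 1018 cells with 8 or more. *Pou4f1* was at 6.06, 22.4, 25.8 and 17.3 CPM in the same cells, and *Ebf2* at 10.1, 8.34, 4.83 and 4.17 CPM with overlapping intervals. The cone-like clusters differed as well. *Ebf1* was at 513 CPM in cluster 9, which was led by the stress response genes *Slc7a3*, *Cebpb* and *Atf3*, at 332 CPM in cluster 1 and at 134 CPM in cluster 5, which was led by *Fabp7*. *Pou4f1* took the same order, at 49.0, 21.6 and 10.8 CPM. *Ebf2*, with 81 UMIs in the whole GFP+ library, was highest in cluster 5 among these clusters, at 11.1 CPM. Its levels of 2.78 CPM in cluster 9 and 3.47 CPM in cluster 1 rest on too few UMIs to be ordered. The 275 GFP+ cells placed in progenitor-like cluster 2 also held cone transcripts, with *Gngt2* at 1605 CPM, and had *Ebf1* at 258 CPM. The part of the stress response in the level of cluster 9 was not tested.

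In the GFP- gate the members were then followed along the *Sncg* and *Nefl* axis, in 4002 cells thinned to 6300 UMIs each. Of these, 2497 cells had no *Sncg* or *Nefl* UMI, 619 had 1, 131 had 2 to 3, 74 had 4 to 7, 84 had 8 to 15, and 597 had 16 or more. All 9 members were higher by over 2-fold in cells with 16 or more than in cells with none, as were 16.9% of the 13661 genes tested, and their median log2 ratio was 4.12 beside -0.13 over all these genes. The summed level of 9 RGC markers was 443 CPM at the foot and 13469 CPM at the top. Cells of other types were also unevenly placed: at least 1 UMI of *Tfap2a*, *Tfap2b*, *Ptf1a*, *Otx2* or *Crx*, markers of amacrine and horizontal cells (AC/HC) and photoreceptor precursors, was held by 49.6% of the cells with 2 to 3 and 31.1% of those with 4 to 7 axis UMIs, but by 2.51% of those with 16 or more. The summed level of 9 AC/HC markers was 887, 781 and 58.0 CPM in these groups.

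*Pou4f2* and *Isl1* had their highest level before the top of the axis, as did *Ebf2* on few UMIs. *Pou4f2* was at 29.9 CPM in cells with no axis UMI, 40.5 at 1, 84.8 at 2 to 3, 251 at 4 to 7, 248 at 8 to 15 and 99.7 CPM at 16 or more. The share of cells with a *Pou4f2* UMI went from 7.53% at the foot to 63.5% at 4 to 7 and 41.7% at the top. When the top was split further, the levels were 162 CPM (138 to 189) at 16 to 31 and 78.0 CPM (67.6 to 89.6) at 32 to 63 UMIs.

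*Isl1* was at 72.9 CPM at the foot, 946 at 4 to 7, 1085 at 8 to 15 and 749 CPM at 16 or more. Within the top it was at 1038 CPM (976 to 1103) at 16 to 31 and 648 CPM (617 to 680) at 32 to 63 UMIs. The share of cells with an *Isl1* UMI stood at 82.4%, 86.9% and 95.3% in the last 3 groups, and at 98.0%, 100% and 95.5% once cells with a UMI of the other types were left out. The log2 ratio of the *Isl1* level at the top to that at 4 to 7 UMIs was -0.34, but it turned to 0.10 with an upper limit of 3500 genes per cell and to 0.22 without thinning. In the other direction, it was -0.73 with cells of the other types left out and -0.72 with *Sncg* alone as the axis.

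*Ebf1* and *Ebf3*, the abundant members of the *Ebf* family, had their highest level at the top. *Ebf1* was at 29.4, 53.1, 198, 575, 881 and 1275 CPM in the 6 groups in order, and 595 of the 597 cells at the top (99.7%) held a UMI. *Ebf3* was at 13.4, 14.1 and 13.3 CPM in the first 3 groups and then at 79.4, 119 and 234 CPM, with a UMI in 73.2% of the top cells. *Irx2* reached 118 CPM at 4 to 7, 144 at 8 to 15 and 164 CPM at the top, and the last of these lay within the interval of the 8 to 15 group (113 to 180). With cells that held a UMI of the other types left out, *Irx2* did not rise over these groups, at 165, 168 and 164 CPM.

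*Pou4f1* and *Pou4f3* had the lowest levels at the foot relative to the top. *Pou4f1* was at 3.75 and 3.85 CPM in cells with 0 and 1 axis UMI, 36.5 CPM at 4 to 7, 100 CPM at 8 to 15 and 234 CPM at the top, where 60.3% of cells held a UMI. *Pou4f3* had no UMI in the 2497 cells of the foot, where the upper end of the exact interval was 0.234 CPM, and was at 27.4 CPM at the top. The lower end of the exact interval of the ratio was 114.7-fold. Against the set floor of 3 UMIs over the foot (0.191 CPM) the ratio was 143.6. Even at the top only 9.38% of cells held a *Pou4f3* UMI. It was at 5.95 CPM at 16 to 31 and 33.2 CPM at 32 to 63 UMIs, so most of its UMIs were in the cells with the most *Sncg* and *Nefl*.

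*Eomes* and *Ebf2* had few UMIs in the middle of the axis. *Eomes* was at 3.18, 7.44 and 12.1 CPM in the first 3 groups, 4.29 and 1.89 CPM in the next 2, and 30.04 CPM at the top, where 8.04% of cells held a UMI. Without the cells that held a UMI of the other types, *Eomes* was at 0.326 CPM at the foot and had no UMI from 2 to 15 axis UMIs, and it was at 30.6 CPM at the top. *Ebf2* was at 2.22 CPM at the foot (35 UMIs), 7.56 CPM at 8 to 15 (4 UMIs) and 5.58 CPM at the top (21 UMIs).

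Set against cells with 4 to 7 axis UMIs, which had begun to differentiate, the top cells were higher by over 2-fold in 5 members, *Pou4f3*, *Eomes*, *Pou4f1*, *Ebf3* and *Ebf1*, as were 8.98% of the 10884 genes tested. They were lower in 1 member, *Pou4f2*, as were 10% of these genes. *Pou4f1* was 6.42-fold (3.99 to 11.1) and *Ebf3* 2.95-fold (2.12 to 4.21) higher, and *Pou4f2* was 2.52-fold (2.03 to 3.11) lower. *Pou4f3* had a single UMI and *Eomes* 2 UMIs in the 74 cells with 4 to 7, and their ratios of 12.8 (2.24 to 509) and 7.003 (1.89 to 58.5) rest on these few UMIs. With cells of the other types left out, 4 members were higher and *Pou4f2* was still lower by over 2-fold, while *Ebf1* was at 666 against 1283 CPM, a log2 ratio of 0.95. With *Nefl* alone as the axis no member was higher, and with the upper limit of 3500 genes or without thinning *Pou4f2* was no longer past 2-fold.

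**Figure D2:**
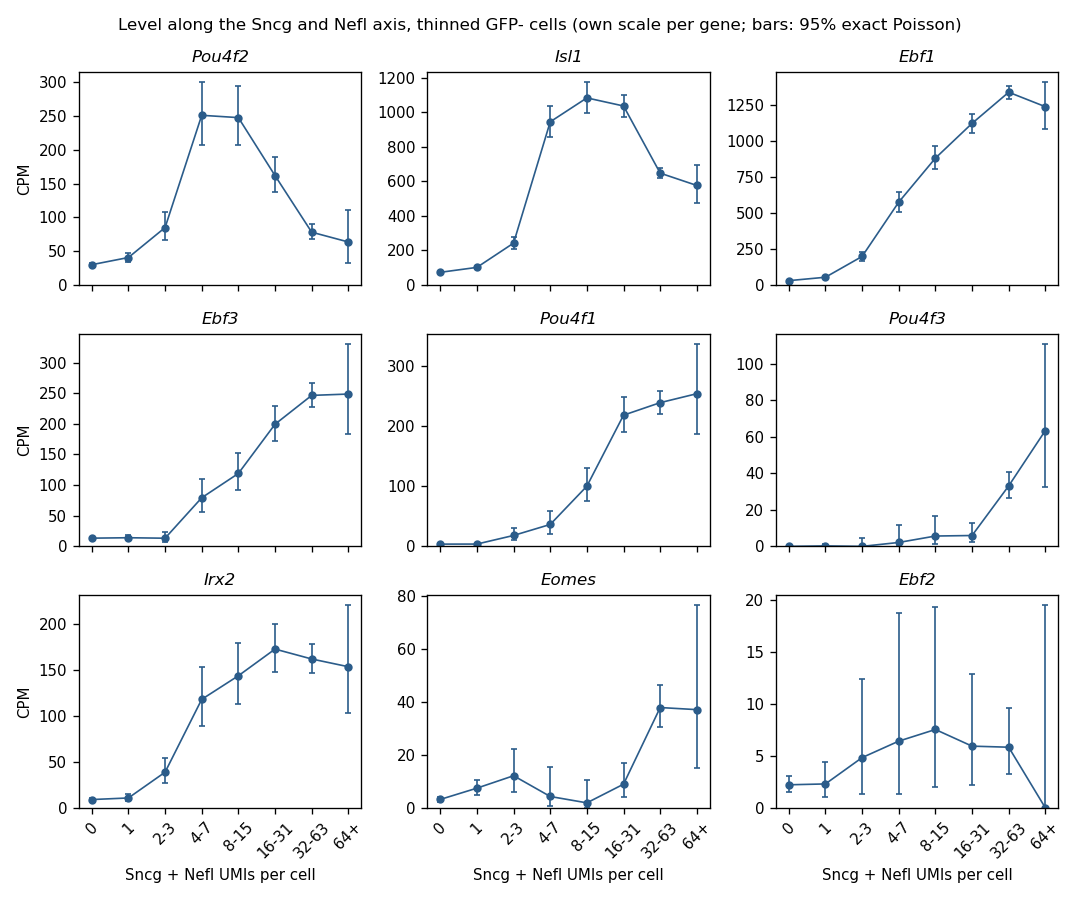
Level (CPM) of each member in thinned GFP- cells by the number of *Sncg* and *Nefl* UMIs in the cell, with the top group split at 32 and 64, 95% exact Poisson intervals and a separate linear scale per gene. *Pou4f2* peaks at 4 to 15 UMIs, and *Isl1* is highest at 8 to 15 and 16 to 31 UMIs. *Ebf1*, *Ebf3* and *Pou4f1* are highest from 32 UMIs on, and *Pou4f3* and *Eomes* are high from 32 UMIs on.

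The cells at the foot of the axis that held a member were not alike. Of the 188 foot cells with a *Pou4f2* UMI, 66.5% held a UMI of *Atoh7*, the progenitor factor that precedes it, and 20.7% one of the mitotic gene *Top2a*, beside 24.7% and 52.3% of all foot cells, while at the top 13.7% of 249 *Pou4f2* cells held *Atoh7*. The 35 foot cells with an *Eomes* UMI held *Ptf1a*, which specifies amacrine and horizontal cells, in 80.0% and *Tfap2b* in 77.1%, whereas none of the 48 *Eomes* cells at the top held either (upper bound 7.40%). These genes were rare in all top cells: of the 595 with *Ebf1*, 2 held *Tfap2b* and 1 *Ptf1a*. Their absence is thus not particular to the *Eomes* cells of the top. *Eomes* was therefore found in 2 sets of cells, one with AC/HC transcripts and one with the highest *Sncg* and *Nefl*.

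The members were next compared by the clusters of all cells, which were made without the members, *Sncg* and *Nefl* among the variable genes. Of 9 clusters, 2 were RGC-like: cluster 4 (750 GFP- cells), led by *Ccer2* and *Sp8*, and cluster 6 (440 GFP- cells), led by *Snhg11* and *Ppp1r1c*. In cluster 4 the mean log2 of the RGC list was 1.05 and that of neurogenic progenitors, the second list, 0.375. The 2 clusters held the highest GFP- level of 7 of the 9 members. How many of all genes had their highest level there was not counted. *Pou4f2* and *Isl1* were higher in cluster 4, at 242 and 905 CPM, than in cluster 6, at 70.8 and 579 CPM. The other 5 were higher in cluster 6: *Ebf1* at 1333 against 563 CPM, *Ebf3* at 260 against 92.4 CPM, *Pou4f1* at 242 against 69.9 CPM, *Irx2* at 155 against 120 CPM, and *Pou4f3* at 32.6 against 1.21 CPM. *Atoh7* stood at 282 CPM in cluster 4 and 8.64 CPM in cluster 6.

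*Eomes* had equal levels in RGC-like cluster 6 (45.6 CPM, 40.6 to 51.1) and AC/HC-like cluster 7 (45.7 CPM, 37.9 to 54.6) and was at 0.268 CPM in cluster 4. *Ebf1* was also present in AC/HC-like cells, at 124 CPM with a UMI in 41.8% of 371 cells. *Ebf2* was highest in the GFP- cells of cone-like cluster 5 (11.5 CPM in 104 cells) and in cluster 4 (10.5 CPM), with 11.1 CPM in the GFP+ cells of cluster 5. In the GFP- cells of cluster 5 only 7.69% held an *Ebf2* UMI, too few to order clusters 5 and 4.

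At a resolution of 0.8, cluster 4 was divided further. An unnamed cluster of 258 GFP- cells with *Atoh7* in 86.4% of them had *Pou4f2* at 378, *Isl1* at 919, *Ebf1* at 285 and *Pou4f1* at 16.01 CPM, with *Sncg* at 49.2 CPM. An RGC-like cluster of 270 GFP- cells had *Pou4f2* at 245, *Isl1* at 1292, *Ebf1* at 1029 and *Pou4f1* at 143 CPM, with *Sncg* at 1938 CPM. Of these clusters, *Isl1*, *Ebf1* and *Pou4f1* were higher in the one with more *Sncg*, and *Pou4f2* in the one with less. *Irx2* had its highest GFP- level of this clustering in that RGC-like cluster of 270 cells, at 177 CPM, and not in the cluster led by *Snhg11*.

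**Figure D3:**
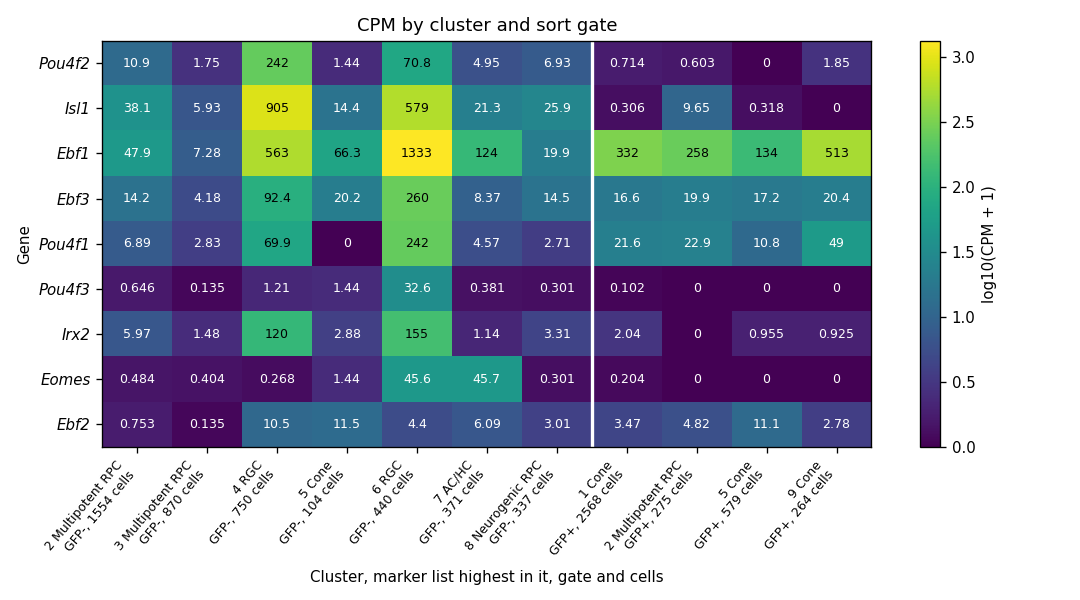
CPM of each member (rows) in each cluster with at least 20 cells of a gate (columns), GFP- left and GFP+ right of the white line, coloured by log10(CPM + 1), with the value printed in each field. Most members are high in RGC-like clusters 4 and 6, *Eomes* in clusters 6 and 7, and *Ebf1* in all 4 groups of GFP+ cells.

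Co-detection of the members was then measured in single GFP- cells. Of the 834 cells with a *Pou4f2* UMI, 765 held an *Isl1* UMI, a share of 91.7% (89.6 to 93.5%), against 13.3% of the 3610 cells without *Pou4f2*. The reverse share was lower, as 61.4% of the 1246 *Isl1* cells held *Pou4f2*. Among the 541 cells with at least 2 *Pou4f2* UMIs, 96.9% had at least 2 *Isl1* UMIs. Of the 85 cells with *Pou4f3*, 92.9% held *Pou4f1*, while 12.3% of the 641 *Pou4f1* cells held *Pou4f3*. Without thinning, 81 of the 85 were among the 681 cells with 16 or more *Sncg* and *Nefl* UMIs. In these 681 cells *Pou4f1* was found in 498, so a high share with *Pou4f1* would arise there in any case.

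Since all members were higher at the top of 1 axis, the number of cells with a pair was set against the number given by multiplying the 2 shares within each axis group. Over all groups *Pou4f2* and *Isl1* were found together in 558 thinned cells, 1.56 times (1.44 to 1.70) the expected number. *Pou4f2* and *Irx2* were together in 302 cells, 1.48 times (1.32 to 1.66) the expected number, and *Pou4f2* and *Ebf2* in 32 cells, 1.93 times (1.32 to 2.73). Of all 36 pairs, the interval lay above 1 in 14 and below 1 in 2. Pairs without *Pou4f2* were among the 14, such as *Isl1* with *Ebf2* at 1.54 (1.14 to 2.05). In the cells with 16 or more axis UMIs alone, the 3 *Pou4f2* pairs named were at 0.991, 0.977 and 1.20, with intervals that held 1. The foot of the axis still mixes cells of several types, which such a product does not remove.

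In the 597 cells at the top, 2.51% held a UMI of the other types. Of the 36 pairs, the counting interval of the ratio held 1 in 33, lay above 1 in 1 and below 1 in 2. This interval treats the number of shared cells as unbounded, though the number of cells with each gene limits it. It is therefore wide, and an interval that holds 1 does not show that 2 genes are independent. *Pou4f2*, for instance, was held by 37.8% (32.7 to 43.0%) of the top cells with *Pou4f1* and 47.7% (41.2 to 54.2%) of those without. *Ebf1* was detected in 595 and *Isl1* in 569 of these cells, so pairs with either gene could hardly depart from 1. The intervals were not adjusted for the number of pairs, and at 95% some miss 1 by counting error alone. *Pou4f1* and *Pou4f3* shared 51 cells where 33.7 were expected, a ratio of 1.51 (1.13 to 1.99). *Pou4f1* and *Eomes* shared 15 cells where 28.9 were expected, a ratio of 0.518 (0.290 to 0.855), and *Pou4f3* and *Eomes* shared none where 5.11 were expected (upper bound 0.722). *Pou4f3* and *Eomes* also shared no cell when all UMIs were used, with 85 and 159 cells, but few shared cells would be expected. Over all thinned cells the expected number was 1.69 without axis groups (upper bound of the ratio 2.18) and 4.57 within them (upper bound 0.807). *Pou4f3* cells held *Ebf3* in 55 of 56 cases, while 70.6% of the other top cells did. The ratio of this pair, 1.32 (0.992 to 1.71), is among those whose interval held 1.

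**Figure D4:**
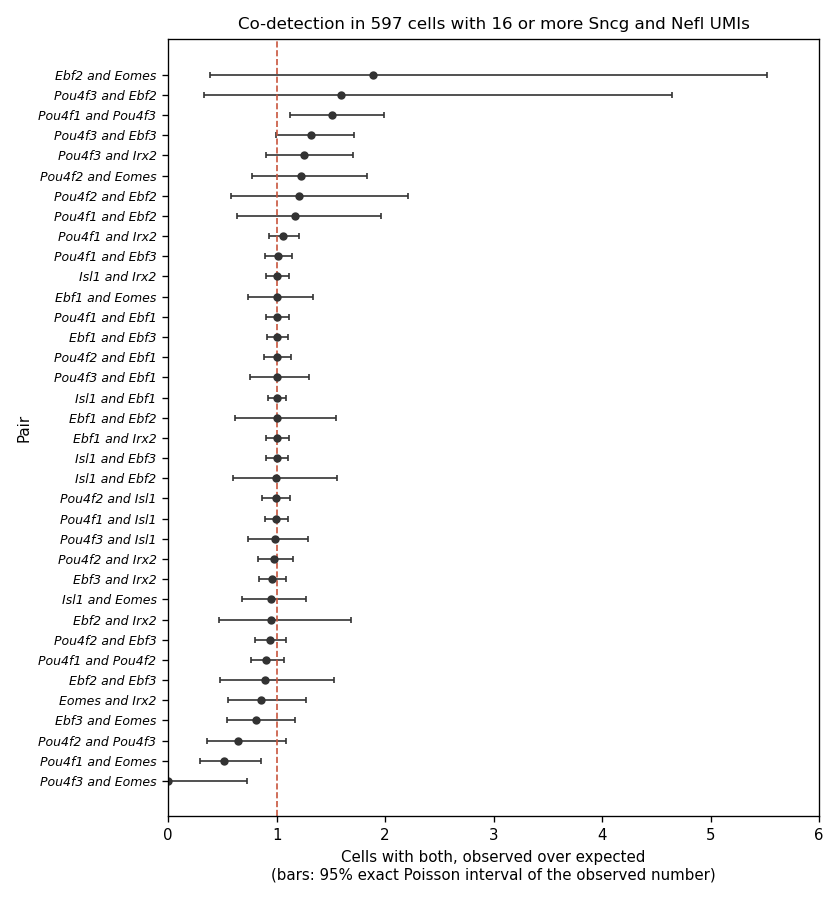
Number of top cells (16 or more *Sncg* and *Nefl* UMIs, 597 cells) with a UMI of both genes, divided by the number expected from the 2 shares, for all 36 pairs, with 95% exact Poisson intervals of the observed number and a dashed line at 1. *Pou4f1* with *Pou4f3* lies above the line, and *Eomes* with *Pou4f1* and with *Pou4f3* below it.

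The brain-specific homeobox/POU pair *Pou4f1* and *Pou4f2* exchanged places along the axis. At 4 to 7 UMIs, 52.7% of 74 cells held *Pou4f2* only, 4.05% *Pou4f1* only and 10.8% both. At 32 to 63 UMIs, 17.2% of 407 cells held *Pou4f2* only, 39.3% *Pou4f1* only and 20.1% both. The share with both was largest at 16 to 31 UMIs, in 48 of 160 cells (23.0 to 37.7%). Its interval overlapped those at 8 to 15 UMIs, 20.2% (12.3 to 30.4%), and at 32 to 63 UMIs (16.4 to 24.4%), so a peak is not resolved. At the whole top, the 224 cells with *Pou4f1* only held *Pou4f3* in 18.3% and *Eomes* in 2.23%, while the 124 cells with neither held *Pou4f3* in 0.806% and *Eomes* in 16.1%. The other classes lay between. The 136 cells with both genes held *Pou4f3* in 7.35% and *Eomes* in 7.35%, and the 113 with *Pou4f2* only in 3.54% and 11.5%. *Isl1* and *Ebf1* did not separate these classes, with shares of 94.1 to 97.6% and 98.4 to 100%.

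**Figure D5:**
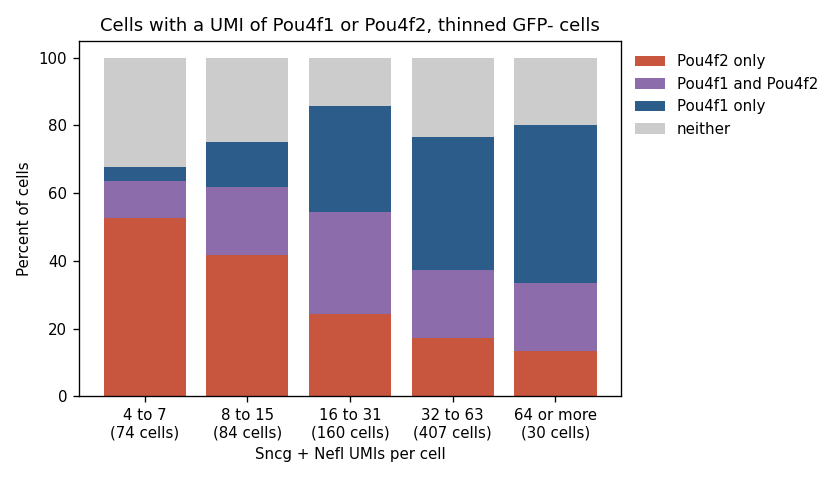
Percent of thinned GFP- cells with a UMI of *Pou4f2* only, of both genes, of *Pou4f1* only or of neither, by *Sncg* and *Nefl* UMIs. The share with *Pou4f2* only is 52.7% at 4 to 7 and 17.2% at 32 to 63 UMIs, and that with *Pou4f1* only is 4.05% and 39.3%.

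The mean number of members per cell was 0.457 in cells with no axis UMI, 1.09 at 2 to 3, 3.24 at 4 to 7, 3.80 at 8 to 15 and 4.50 at the top. More members were thus found together the more *Sncg* and *Nefl* a cell held. At the foot 73.5% of cells held none of the 9, and at the top 1 of 597 cells did. A UMI of at least 4 members was found in 2.92% of foot cells and 84.3% (81.1 to 87.1%) of top cells. The top cells showed 68 combinations, of which the most frequent, *Pou4f1* with *Isl1*, *Ebf1*, *Ebf3* and *Irx2*, made up 11.6% (69 cells). As a member at a few UMIs per cell is missed in part of the cells that express it, these are combinations of detected transcripts.

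Across the 4444 GFP- cells, the genes whose scaled level was most like that of a member, among 12671 genes, are given as a description, since all cells share 1 library. *Pou4f2* was most like *Isl1* (Pearson r = 0.73), *Igfbpl1* and *Elavl4*, and *Isl1* most like *Igfbpl1* (0.87) and *Elavl4* (0.86). *Ebf1* was most like *Gap43* (0.87), a growth cone protein gene, and *Sncg* (0.85), and *Ebf3* like *Gap43* (0.73) and *Sncg* (0.73). *Pou4f1* was most like *Sncg* (0.70) and *Gap43* (0.68), and *Pou4f3* like *Rgs10* (0.43), *Pou4f1* (0.40) and *Irx4* (0.38). *Irx2* was most like *Elavl4* (0.71) and *Isl1* (0.71), and *Eomes* like *Igf1* (0.53), *Synm* (0.44) and *Lrfn5* (0.40), none of which led the list of another member. No gene passed 0.17 for *Ebf2*.

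Of 31 other regulators known from RGCs, 19 were higher at the top than at the foot of the axis by over 2-fold, 7 were lower and 5 lay between, beside 16.9% of all genes tested higher and 22.2% lower. Those higher included *Irx4*, from 0.127 to 24.2 CPM, and *Myt1l*, from 0.763 to 72.9 CPM. Among the lower ones was *Atoh7*, from 130 to 17.6 CPM. Between the gates, 9 of the 31 were higher and 11 lower in GFP+ cells, with a median log2 ratio of -0.10, beside 22% and 16.7% of all genes tested. Relatives of the members went both ways. Higher in GFP+ cells were *Isl2* at 71.0 against 9.94 CPM, *Irx6* at 156 against 7.61 CPM, *Irx5* at 68.3 against 25.8 CPM and *Ebf4* at 7.995 against 1.62 CPM. *Irx3* was lower, at 5.68 against 21.4 CPM, as was *Irx4*, with no UMI in GFP+ and 236 UMIs in GFP- cells, and *Irx1* lay between, at 2.19 against 1.60 CPM. Within these families *Isl1* and *Irx2* were 65.5-fold and 22.0-fold lower in GFP+ cells, while *Isl2* and *Irx6* were 7.14-fold (6.40 to 7.97) and 20.4-fold (18.3 to 22.9) higher. Of 19 RGC differentiation genes that reached 10 UMIs, 15 were lower in GFP+ cells by over 2-fold, beside the same 16.7% of all genes, and *Slc17a6* and *Robo2* were higher.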

How the data were processed

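The deposited values are UMI counts of called cells, which the authors obtained with Cell Ranger 2.1.1 (mm10, GRCm38) and left unnormalized. Cells passed with at least 250 genes and under 0.25 of UMIs mitochondrial, with no upper limit on genes. Summed counts were divided by the total and multiplied by 1000000, with Poisson intervals at 95%, shares with Clopper-Pearson intervals, and ratios with conditional exact intervals. A gene was called past 2-fold where both sides together held at least 10 UMIs, and a sum of 0 was set to 3 UMIs over the group. For shares, cells were thinned to 6300 UMIs within GFP- cells (442 shallower cells left out) and to 3300 between gates (33 GFP- and 726 GFP+ cells left out). Clusters of both libraries came from Seurat 5.3.0 (R 4.3.3; 30 components; UMIs, genes and cell cycle scores regressed out; resolution 0.4), named by marker lists. Scrublet in scanpy 1.11.5 called 55 GFP- and 3 GFP+ cells doublets (0.0805% of the latter, where the caller hardly worked), which were left in. Likeness was Pearson's r on log values scaled to 10000 UMIs. Other steps used Python 3.11.15, numpy 2.4.6, pandas 2.3.3, scipy 1.17.1 and edgeR 4.0.16 (TMM factors only). The scripts were tested on simulated data. The genes named are the 9 members, the 5 genes most like each, and 2 lists of 31 regulators and 21 differentiation genes, one of which shares *Onecut1* with the AC/HC markers. Members and lists were chosen with earlier results of these data known. Alternatives were other cell filters, scalings, thresholds, axes and clusterings. Gene names and positions came from the files and the GENCODE annotation of GRCm38. Antisense genes overlapping *Ebf1* and *Ebf2* had 4 UMIs each, and reads are stranded in this assay.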

Additional observations from a re-analysis of the deposited data

How the results depend on the processing

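Between 5 and 8 members were lower in GFP+ cells under the 9 alternatives tried, beside 13.9% to 51.2% of all genes tested. These counts are past 2-fold, except in the alternative that set the threshold at 1.5-fold (7 members, 23.0% of genes). With the upper limit of 3500 genes, *Pou4f1* turned to a log2 ratio, GFP+ over GFP-, of 0.45. TMM factors moved the median log2 ratio of all genes from 0.27 to -0.05 and mean UMIs per cell to -1.03. Mean UMIs per cell gave 8 members lower, beside 51.2% of all genes, and means of per-cell values 6, beside 18.4%. Along the axis, 8 or 9 members were higher at the top than at the foot under each alternative, and *Ebf2* turned to -1.05 (log2) with *Nefl* alone. For the alternatives of the axis the share over all genes was not counted. Against cells with 4 to 7 UMIs, 3 members were higher with *Sncg* alone and 0 with *Nefl* alone, where *Pou4f3* turned to -0.16 and *Eomes* to -0.54 (log2) and 2 members were lower. With the upper limit, or without thinning, 0 members were lower. The cause was not tested. With *Nefl* alone 156 cells had 16 or more and 203 had 4 to 7 UMIs, and with the upper limit 152 cells remained at the top. The share of *Pou4f2* cells with *Isl1* was 89.4% in thinned cells, 87.3% with the upper limit, 96.9% at 2 or more UMIs of each gene and 94.8% in thinned top cells, where 95.7% of the cells without *Pou4f2* held *Isl1* too. Without thinning, 97.2% of top cells held 4 or more members, as deeper cells show more. Between 6 and 7 members were highest in an RGC-like cluster under the 4 clusterings, with no such count over all genes. However, *Pou4f2* was highest in a neurogenic-progenitor-like cluster without regression (277 CPM) and with the upper limit (218 CPM). At double resolution it was highest in an unnamed cluster (378 CPM), as was *Ebf2* (12.5 CPM), which was otherwise highest in a cone-like cluster. *Eomes* was highest in an RGC-like cluster without regression. *Irx2* was highest in an RGC-like cluster led by *Ccer2*, and not in the one led by *Snhg11*, without regression (173 CPM) and at double resolution (177 CPM). No paired analysis was possible because each gate is 1 library and the labels carry no replicate numbers. The axis without cells of other types, the top from 32 UMIs, the gates without GFP+ cells that held *Sncg* or *Nefl*, and *Pou4f2* cells of the top alone were chosen after seeing the data. With 1 library per gate, differences between libraries cannot be told apart from differences between gates.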
